A study of Homo sapiens with 20 samples.

Results

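Transcripts of 5 chemokine genes, CCL2, CCL20, CCL26, CCL28 and CX3CL1, were examined in 4 groups of U2-OS cells. Members were the rows of the deposited count table whose gene symbol was one of 6 chemokine symbols, and 5 of 20314 rows matched. No row carried the symbol CCL5, which was not analysed here. There are 1679 rows with an Ensembl identifier but no symbol, so that a gene without a matched symbol may still have a row. U2-OS is a human osteosarcoma cell line. RNA was sequenced from 20 libraries, 5 in each group, and the study's design describes quintuplicate cultures. The groups were untreated cells, cells taken 90 min after irradiation (IR) with 20 Gy, cells taken 7 days after the same dose, and cells with an shRNA against NFKBIA, which the study describes as not irradiated. All groups were grown in DMEM with FCS, and the harvests of the irradiated cells were timed to coincide. According to the methods, shRNA lines were made with lentiviral vectors and clonal selection in puromycin, some of them inducible with doxycycline. The figure legends of the study refer the sequenced knockdown to a doxycycline-inducible shRNA in cells pre-treated with doxycycline. The untreated libraries carry no label for a vector, puromycin or doxycycline, so that these and the knockdown cannot be told apart.

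Chemokines are small secreted proteins that bind G protein-coupled receptors on leukocytes and draw those cells along a gradient. They are named by the spacing of their first cysteines, with the CC family holding adjacent ones and CX3CL1 (fractalkine) standing alone in its class as a membrane-bound protein whose chemokine head sits on a mucin stalk. Several chemokine genes are transcribed under NF-κB, which the product of NFKBIA, IκBα, holds in the cytoplasm, and chemokines belong to the secretome of senescent cells.

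The promoter of CCL20 is shown because its own level peaked at 7 days, and that of CCL26 because its own level peaked with the knockdown. RefSeq promoter windows on build GRCh38.p14 were matched by symbol for 3 of the 6 symbols, CCL20, CCL26 and CCL28, the last with 2 start sites. The 250 bases before the annotated start are given 5′ to 3′ on the strand of the gene, with a match to the NF-κB consensus and the letters TATAAA in capitals. The CCL20 stretch is chr2:227813592-227813841 on the plus strand, and the CCL26 stretch is chr7:75789747-75789996 on the minus strand.
CCL20: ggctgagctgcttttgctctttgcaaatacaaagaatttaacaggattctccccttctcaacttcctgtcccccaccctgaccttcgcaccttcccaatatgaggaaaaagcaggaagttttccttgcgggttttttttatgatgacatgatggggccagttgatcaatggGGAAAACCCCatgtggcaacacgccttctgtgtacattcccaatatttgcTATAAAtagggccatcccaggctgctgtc
CCL26: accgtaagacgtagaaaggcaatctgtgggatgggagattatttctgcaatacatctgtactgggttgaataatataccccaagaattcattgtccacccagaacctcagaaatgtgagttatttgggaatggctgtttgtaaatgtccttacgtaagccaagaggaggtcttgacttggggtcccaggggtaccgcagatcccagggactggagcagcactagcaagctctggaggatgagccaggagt

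Windows of 300 bases, which add the first 50 transcribed bases, were searched on both strands for the NF-κB consensus, for TTCNNNNGAA (the palindrome bound by STAT factors), for TATAAA and for TGAGTCA (the AP-1 element). In the CCL20 window the NF-κB consensus matched once, on the opposite strand, from 79 to 70 bases before the start, and TATAAA matched from 29 to 24 bases before it. None of the 4 motifs overlapped another there, and neither CCL26 nor either CCL28 window held any of them. Of all 35116 RefSeq promoter windows, 11.3% held the NF-κB consensus, 6.44% TTCNNNNGAA, 11.5% TATAAA and 4.95% TGAGTCA. These matches describe letters in short windows and carry no measurement of binding.

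The libraries held between 22535659 and 40390961 counts, and untreated replicate 5 was the shallowest. Lanes named in the labels overlapped the groups little. Lane 2 held only untreated libraries and lane 3 held untreated replicate 5 beside 3 libraries at 90 min, lane 4 held 2 libraries of each irradiated group, and lane 5 held 3 libraries at 7 days beside 1 knockdown library. Of the osteoblast-lineage markers, SPARC and COL1A1 dominated a summed level of 2688 to 4734 CPM (CPM is the count relative to the depth of its library, here with TMM factors), whereas SP7 and IBSP had 3 counts or fewer in every library. COL1A2 reached at most 21 counts and BGLAP 54. By group the sum was 3995 to 4734 CPM in untreated cells, 3665 to 3975 at 90 min, 2688 to 3106 at 7 days and 2793 to 2960 with the knockdown. The part of these markers in the chemokine results was not tested. NFKBIA, the targeted gene, had 31.3 ± 7.25 CPM in untreated cells and 12.1 ± 0.667 CPM with the knockdown (SD, n = 5 each), and every knockdown library lay below every untreated one. The difference was -1.36 on the log2 scale (standard error, SE, 0.11, adjusted p = 4.87e-09, edgeR's quasi-likelihood F test, Benjamini-Hochberg adjusted).

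All 5 members passed the filter on low counts and none was near the detection floor, which was set at a median of under 10 counts in each group. CCL2 was read most deeply, with 474 to 2395 counts in a library, followed by CX3CL1 with 272 to 1104. CCL26 had 92 to 375 counts. CCL28 (52 to 126 counts) and CCL20 (34 to 217 counts) were the thinnest, and for CCL20 counting alone gave a coefficient of variation of 14.0% in untreated libraries, where the observed one was 23.5%. For CCL2 in untreated libraries the observed value was 17.9% and that of counting 2.86%, so that the spread there lay well above counting error. At 7 days these values were 18.2% and 2.65%, at 90 min 3.49% and 2.13%, and with the knockdown 3.94% and 4.33%. The knockdown libraries thus varied no more in CCL2 than counting alone gives.

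Per transcript length, CCL2 was the most abundant of the 5 in untreated cells, at 34.7 ± 6.23 CPM per kilobase (SD, n = 5). CCL26 followed at 6.42 ± 1.82 CPM per kilobase and CX3CL1 at 4.88 ± 1.11. CCL20 stood at 1.30 ± 0.305 CPM per kilobase and CCL28 at 0.665 ± 0.154. Averaged over all libraries, these length-scaled levels placed CCL2 at percentile 90.0 of the genes tested, CCL26 at 58.8, CX3CL1 at 38.1, CCL20 at 26.3 and CCL28 at 15.7.

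**Figure D1:**
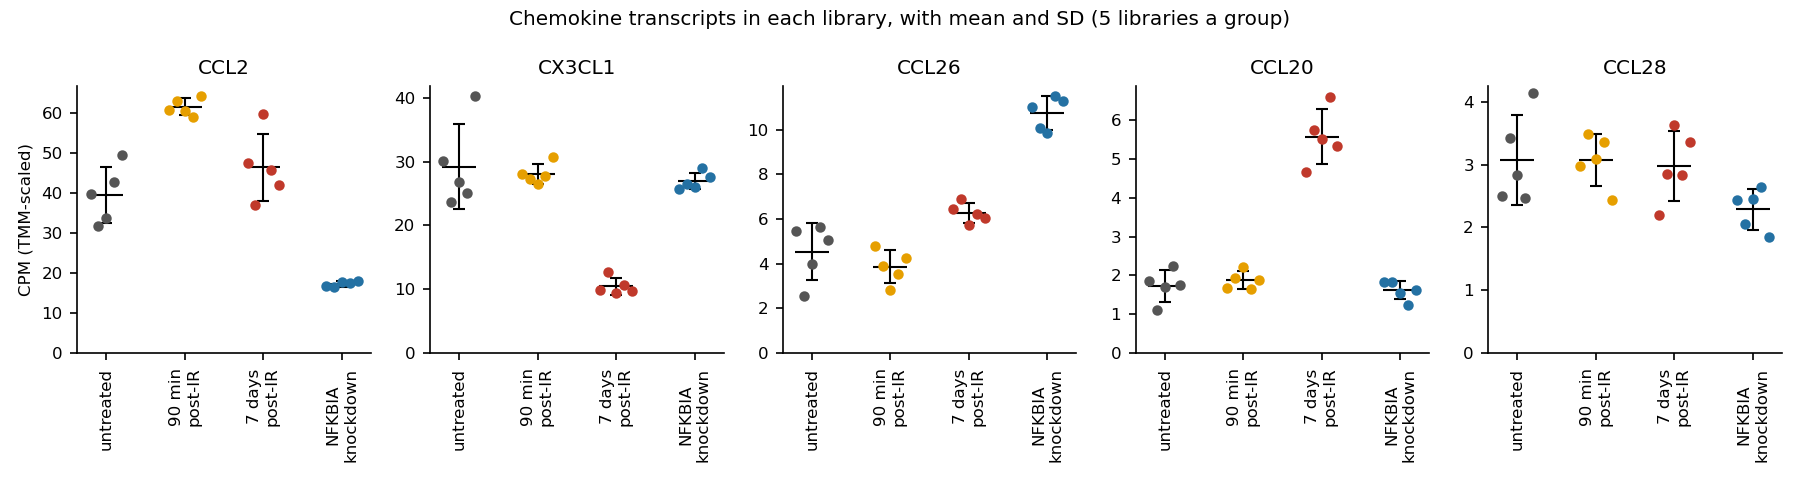
Level of each chemokine transcript in each library (vertical axis, CPM, starting at 0) by group (horizontal axis). Points are single libraries, and the bars give mean and SD of 5 libraries. CCL2 lay highest at 90 min and lowest with the knockdown, CX3CL1 was lowest at 7 days, CCL26 highest with the knockdown and CCL20 highest at 7 days, while the groups overlapped for CCL28.

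CCL2 (ENSG00000108691, also MCP-1) draws monocytes through the receptor CCR2. Its transcript rose at 90 min and fell with the NFKBIA knockdown. The untreated libraries had 39.7, 31.8, 33.8, 42.7 and 49.5 CPM in replicates 1 to 5. At 90 min post-IR they had 60.8, 63.1, 60.4, 59.1 and 64.4 CPM. All 5 early libraries stood above the untreated ones and close together. The 7 days libraries had 47.5, 37.1, 59.7, 45.7 and 42.1 CPM, spread across the range between the other irradiated group and the untreated cells. With the knockdown the values were 16.7, 16.4, 17.7, 17.4 and 18.0 CPM, below every other library of the series.

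At 90 min the CCL2 level was 1.56 times that of untreated cells, a log2 fold change of 0.64 (SE 0.11, adjusted p = 0.000194, edgeR's quasi-likelihood F test, Benjamini-Hochberg adjusted). The exact permutation test of log2 CPM, two-sided, gave p = 0.00794, the smallest that 5 libraries against 5 allow. This change did not hold when sequencing lane was a factor (log2 fold change 0.31, adjusted p = 0.155, edgeR, Benjamini-Hochberg adjusted), nor within lane 3, where the value was also 0.31 and lay under the fold threshold. Both of these rest on untreated replicate 5, which had the highest CCL2 level of the untreated libraries and, alone in its group in lane 3, is assumed to vary like the others.

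With the knockdown CCL2 was 2.29-fold lower than in untreated cells, a log2 fold change of -1.19 (SE 0.11, adjusted p = 4.42e-08, edgeR, Benjamini-Hochberg adjusted). It was -1.79 with lane as a factor (adjusted p = 0.000192, edgeR, Benjamini-Hochberg adjusted), although these groups share no lane. In bulk RNA, fewer cells that express a gene and less RNA of that gene per cell cannot be told apart, here and in the results that follow. At 7 days the CCL2 level differed from untreated cells by 0.24 on the log2 scale (95% interval 0.014 to 0.46, adjusted p = 0.0589, edgeR, Benjamini-Hochberg adjusted), which did not pass the test. CCL7 (MCP-3), the next protein-coding gene on chromosome 17 in GENCODE 29, was higher at 7 days, at 1.22 ± 0.245 against 0.692 ± 0.103 CPM in untreated cells (SD, n = 5 each). Its log2 fold change was 0.82 (adjusted p = 0.00159, edgeR, Benjamini-Hochberg adjusted) from 16 to 51 counts a library, and neither the value at 90 min (0.38) nor that with the knockdown (-0.21) passed.

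CX3CL1 (ENSG00000006210) encodes fractalkine, which binds CX3CR1 on monocytes, natural killer cells and T cells, as an adhesion molecule on the membrane or, once shed, as a soluble attractant. It fell at 7 days and passed the test in neither other comparison with untreated cells. The untreated libraries had 30.0, 23.7, 26.9, 25.1 and 40.3 CPM, and the libraries at 90 min had 28.0, 27.3, 26.4, 27.7 and 30.6 CPM. These groups overlapped throughout, apart from untreated replicate 5, which stood above all others. At 7 days the values were 9.80, 12.6, 9.40, 10.7 and 9.74 CPM. With the knockdown they were 25.8, 26.5, 26.1, 28.9 and 27.5 CPM, within the untreated range and above every library at 7 days.

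The CX3CL1 level at 7 days was 2.78-fold lower than in untreated cells, a log2 fold change of -1.48 (SE 0.11, adjusted p = 3.17e-10, edgeR, Benjamini-Hochberg adjusted). Leaving out untreated replicate 5 gave -1.36, and lane as a factor gave -1.95. At 90 min the difference was -0.05 on the log2 scale (95% interval -0.27 to 0.17), and with the knockdown it was -0.11 (95% interval -0.33 to 0.11). With lane as a factor these became -0.56 (adjusted p = 0.00113) and -0.58 (adjusted p = 0.0476, edgeR, Benjamini-Hochberg adjusted), which are past the threshold, and without untreated replicate 5 they were 0.08 and 0.01. CX3CL1 lies between the chemokine genes CCL22 and CCL17 on chromosome 16 in GENCODE 29, and CCL22 and CCL17 had at most 1 count in any library.

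CCL26 (ENSG00000006606, eotaxin-3) attracts eosinophils and basophils through CCR3 and is a classic target of IL-4 and IL-13 acting through STAT6. Its transcript was higher with the NFKBIA knockdown than in every other group. The untreated libraries had 5.46, 2.55, 3.98, 5.63 and 5.04 CPM, with replicate 2 lowest. At 90 min the values were 4.80, 3.89, 2.84, 3.54 and 4.25 CPM, inside the untreated range. The 7 days libraries had 6.47, 6.90, 5.74, 6.24 and 6.05 CPM, so that the lowest of them lay just above the highest untreated library. With the knockdown the values were 11.0, 10.1, 9.84, 11.5 and 11.3 CPM, apart from all others.

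With the knockdown CCL26 was 2.39 times the untreated level, a log2 fold change of 1.26 (SE 0.15, adjusted p = 1.57e-06, edgeR, Benjamini-Hochberg adjusted). With lane as a factor the value was 1.27 and its adjusted p 0.0589 (edgeR, Benjamini-Hochberg adjusted), a fit in which the untreated and knockdown libraries share no lane. At 7 days the log2 fold change was 0.48 (SE 0.16, adjusted p = 0.0112, edgeR, Benjamini-Hochberg adjusted), under the threshold of 0.5 on the fold change. That difference crossed the threshold with library size alone as the scaling (0.53) and without untreated replicate 1 (0.57), 4 (0.55) or 5 (0.50). At 90 min the value was -0.21 (95% interval -0.55 to 0.13) and did not pass.

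CCL24 (eotaxin-2), which also signals through CCR3 and is the neighbour of CCL26 on chromosome 7, was lower at 7 days. It had 14.2 ± 1.49 CPM in untreated cells and 1.67 ± 0.371 CPM at 7 days (SD, n = 5 each), with no overlap. The log2 fold change was -3.09 (SE 0.11, adjusted p = 1.47e-15, edgeR, Benjamini-Hochberg adjusted). At 90 min (-0.21) and with the knockdown (-0.15) CCL24 did not pass the test.

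Of the 7 genes listed for the IL-4 and IL-13 receptors, their kinases and STAT6, all were tested, 3 were higher at 7 days and 1 with the knockdown, and 0 were called lower in either or called at 90 min by edgeR or DESeq2, where 1 (IL4R) had an unadjusted p under 0.05. Of all genes tested, 16.7% were higher at 7 days and 5.18% with the knockdown. At an unadjusted p under 0.05, 1 was lower at 7 days and 2 with the knockdown. IL13RA2, which encodes a high-affinity IL-13 binding chain, rose at 7 days (log2 fold change 2.02) and with the knockdown (1.31). IL4R, the shared chain of the IL-4 and IL-13 receptors, rose at 7 days (0.67), as did IL2RG, the common gamma chain (0.52, with libraries that overlapped the untreated ones). STAT6 had log2 fold changes of 0.34 at 7 days and 0.38 with the knockdown, under the fold threshold. The median of the list was 0.34 at 7 days and 0.03 with the knockdown, against 0.01 and -0.01 over all genes tested.

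CCL20 (ENSG00000115009, also MIP-3α) draws CCR6-bearing T helper cells, B cells and immature dendritic cells. It was higher at 7 days than in each other group, and those others overlapped. The untreated libraries had 1.84, 1.11, 1.70, 2.24 and 1.76 CPM, and the libraries at 90 min had 1.68, 1.93, 2.22, 1.64 and 1.87 CPM. At 7 days the values were 4.65, 5.75, 5.51, 6.60 and 5.34 CPM, the lowest of them above every library of the other groups. With the knockdown they were 1.82, 1.82, 1.55, 1.25 and 1.63 CPM, within the untreated range.

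The CCL20 level at 7 days was 3.24 times that of untreated cells (95% interval of the log2 fold change 1.40 to 1.99, exact permutation test, two-sided, p = 0.00794). Lane as a factor left the log2 fold change at 1.70 (adjusted p = 0.00149, edgeR, Benjamini-Hochberg adjusted). At 90 min the difference was 0.12 on the log2 scale (95% interval -0.20 to 0.44), and with the knockdown it was -0.08 (95% interval -0.41 to 0.25). Both intervals lie inside the threshold of 0.5 on the fold change, from 34 to 79 counts a library.

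The summed level of 8 leukocyte markers was higher at 7 days, where CCL20 was higher and CX3CL1 lower. It was 29.0 to 34.7 CPM at 7 days, against 4.70 to 12.4 CPM in untreated cells, 4.53 to 6.51 at 90 min and 4.58 to 5.65 with the knockdown. At 7 days CD68, a lysosomal glycoprotein abundant in macrophages, made up most of the sum, with 20.9 to 25.6 CPM. In untreated cells CD68 had 1.27 to 6.28 CPM, the highest in replicate 5 and at most 2.15 in the others. LYZ reached at most 4 counts in a library, CD3E 12 and CD14 14. Of the 4 leukocyte markers tested, CD68 and ITGAM were called higher at 7 days (16.7% of all genes tested). With the knockdown, where CCL2 was lower, PTPRC (log2 fold change -1.52, adjusted p = 4.46e-05) and ITGAM (-0.76, adjusted p = 0.00116, both edgeR, Benjamini-Hochberg adjusted) were called lower (7.53% of all genes), while CSF1R (0.25) and CD68 (-0.024) did not pass. The part of these transcripts in the chemokine results was not tested.

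CCL28 (ENSG00000151882), a mucosal chemokine of epithelia that acts through CCR10 and CCR3, passed the threshold in no comparison. The untreated libraries had 2.49, 3.43, 2.83, 2.47 and 4.14 CPM, and at 90 min the values were 2.97, 3.49, 3.09, 3.37 and 2.44 CPM. The 7 days libraries had 2.19, 2.86, 3.63, 2.83 and 3.37 CPM. With the knockdown they had 2.44, 2.06, 2.45, 2.64 and 1.84 CPM, the lowest group mean, although the highest of them lay above the lowest untreated libraries. The largest difference from untreated cells was that of the knockdown, -0.41 on the log2 scale (95% interval -0.73 to -0.08, adjusted p = 0.0447, edgeR, Benjamini-Hochberg adjusted), under the fold threshold. The 4 epithelial markers summed to 9.05 to 12.6 CPM in untreated cells, 8.77 to 10.8 at 90 min, 3.62 to 4.20 at 7 days and 3.52 to 4.22 with the knockdown, and their part in the CCL28 values was not tested.

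At 90 min, 1 of the 5 members was called higher (CCL2), as were 2.08% of the 14992 genes tested, and 0 were called lower, as were 1.57%. Either way 3.66% of all genes were called, and 0 members had a lower level at an unadjusted p under 0.05 or a lower call with DESeq2. At 7 days 1 was called higher (CCL20, against 16.7% of all genes) and 1 lower (CX3CL1, against 14.4%), where 31.1% were called either way. With the knockdown 1 was called higher (CCL26, against 5.18% of all genes) and 1 lower (CCL2, against 7.53%), where 12.7% were called either way. The libraries of the compared groups did not overlap for 1 member at 90 min, 3 at 7 days and 2 with the knockdown, where 12.3%, 44.8% and 24.1% of all genes tested did not overlap. These 3 comparisons share the untreated libraries. The median log2 fold change of the 5 members was 0.02 at 90 min, 0.24 at 7 days and -0.11 with the knockdown, beside -0.03, 0.01 and -0.01 over all genes tested.

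**Figure D2:**
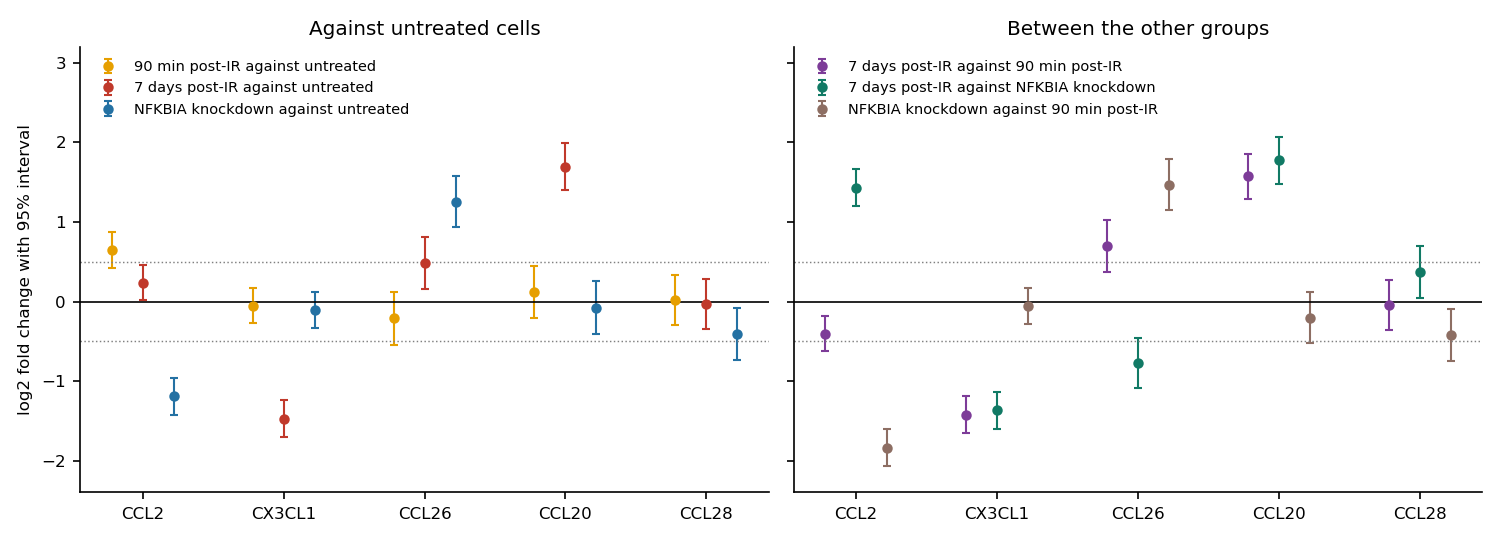
Log2 fold change with its 95% interval (vertical axis) of each chemokine (horizontal axis), on the left for each group against untreated cells and on the right between the other groups. Dotted lines mark the threshold of 0.5 in either direction. CCL2 and CCL26 lay on opposite sides of 0 with the knockdown, at -1.19 and 1.26, and CCL20 and CX3CL1 at 7 days, at 1.70 and -1.48.

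The later time point was compared directly with the earlier one, a test that does not use the untreated libraries for the means. CCL20 (log2 fold change 1.57, adjusted p = 2.73e-09) and CCL26 (0.70, adjusted p = 0.000667) were higher at 7 days than at 90 min, and CX3CL1 was lower (-1.42, adjusted p = 5.66e-10, all edgeR, Benjamini-Hochberg adjusted). Of all genes tested, 16.8% were called higher and 12.6% lower here, 29.3% together. The libraries of these 3 members did not overlap between the time points, nor did those of 61.8% of all genes. CCL2 was lower at 7 days than at 90 min by the test (-0.41, adjusted p = 0.00251, edgeR, Benjamini-Hochberg adjusted) but under the fold threshold. It crossed the threshold within lane 4 (-0.56) and without replicate 3 of the 7 days libraries (-0.54), which had the highest CCL2 level of its group. With lane as a factor the CCL2 values against untreated cells, 0.31 at 90 min and -0.23 at 7 days, also lay over 0.5 apart. Within lane 4, with 2 libraries from either time point, the values of CCL20 (1.54), CCL26 (0.76) and CX3CL1 (-1.40) were close to those of all libraries.

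Against the knockdown, the 7 days libraries had more CCL2 (log2 fold change 1.43, 2.70-fold) and CCL20 (1.78, 3.42-fold) and less CCL26 (-0.77, 1.71-fold) and CX3CL1 (-1.37, 2.58-fold). These 4 members were called and did not overlap between the groups, where 15.8% of the genes tested were called higher, 9.89% lower and 25.7% either way, and 60.7% did not overlap. The largest adjusted p among them was that of CCL26 (0.000146, edgeR, Benjamini-Hochberg adjusted). CCL28 passed the test under the fold threshold, both here (0.38, adjusted p = 0.0464) and for the knockdown against 90 min (-0.42, adjusted p = 0.0334, edgeR, Benjamini-Hochberg adjusted). In lane 5, which held 3 libraries at 7 days and 1 knockdown library, the values were 1.56 for CCL2, 1.66 for CCL20, -0.89 for CCL26 and -1.38 for CX3CL1. Between the knockdown and the 90 min libraries CCL2 was lower (-1.84) and CCL26 higher (1.47), where 6.54% of all genes tested were called higher, 7.6% lower and 14.1% either way. Both members had no overlap between these groups, and 43.6% of all genes had none.

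The order of the groups differed from gene to gene. For CCL2 it ran from 90 min (61.6 ± 2.15 CPM) over 7 days (46.4 ± 8.44) and untreated (39.5 ± 7.08) to the knockdown (17.2 ± 0.679 CPM, SD, n = 5 each). The difference between 7 days and untreated did not pass the test, and their libraries overlapped. For CX3CL1 the untreated (29.2 ± 6.64 CPM), 90 min (28.0 ± 1.59) and knockdown (27.0 ± 1.29) groups did not differ beyond their spread, and 7 days (10.5 ± 1.30 CPM) was set apart. For CCL26 the knockdown (10.7 ± 0.746 CPM) stood over 7 days (6.28 ± 0.437), and untreated (4.53 ± 1.28) and 90 min (3.87 ± 0.738) did not differ beyond their spread. For CCL20 only 7 days (5.57 ± 0.708 CPM) was set apart from 90 min (1.87 ± 0.233), untreated (1.73 ± 0.407) and the knockdown (1.61 ± 0.237). The neighbouring groups of CCL28 overlapped throughout, from 3.07 ± 0.711 CPM in untreated cells to 2.29 ± 0.326 CPM with the knockdown.

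Put on the length scale, the composition of the 5 transcripts shifted. CCL2 made up 72.5% of their summed level in untreated cells, 81.6% at 90 min, 72.1% at 7 days and 41.5% with the knockdown (means of 5 libraries). CCL26 went from 13.2% in untreated cells to 41.6% with the knockdown, where the ratio of CCL26 to CCL2 was 0.895 to 1.07 in the single libraries, against 0.129 to 0.221 in untreated ones. CX3CL1 made up 10.2% of the sum in untreated cells and 3.16% at 7 days, CCL20 2.70% and 7.50%. The ratio of CCL20 to CX3CL1 was 0.196 to 0.400 in untreated libraries and 2.04 to 2.76 at 7 days, so that CCL20 passed CX3CL1 in each of the 5 libraries at 7 days. These shares restate the changes of the members above on another scale.

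**Figure D3:**
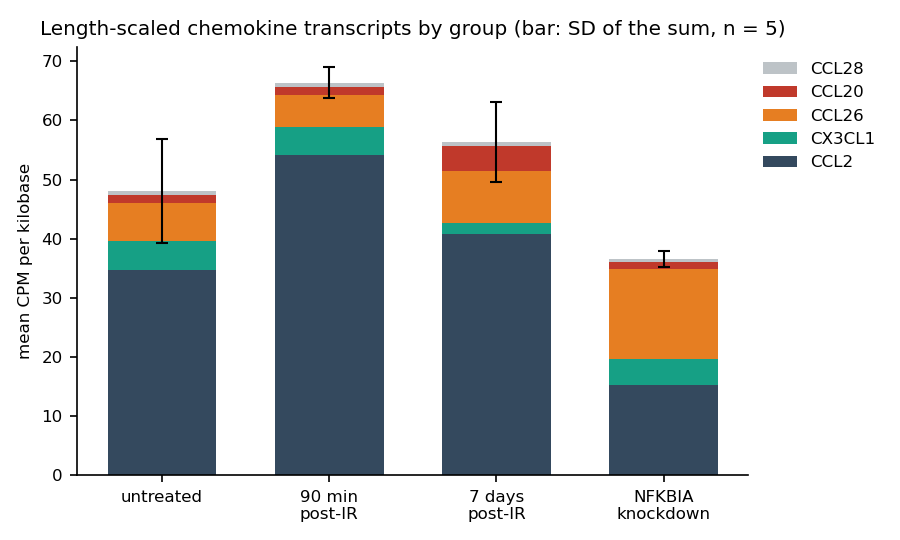
Mean level per transcript length of the 5 chemokines (vertical axis, CPM per kilobase, starting at 0), stacked by gene, in each group (horizontal axis). Error bars give the SD of the sum over 5 libraries. The sum was 48.0 ± 8.80 in untreated cells, 66.4 ± 2.62 at 90 min, 56.3 ± 6.78 at 7 days and 36.6 ± 1.38 with the knockdown, where CCL26 and CCL2 took nearly equal parts.

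Of 23 further CC symbols, 12 had a row and 11 matched none, which leaves out any of them among the rows without a symbol. Of the 12, 3 (CCL7, CCL24 and CCL27) had enough counts to be tested, and the other 9 never exceeded 2 counts in a library, 4 of them at 0 throughout. A count of 0 allows up to 3 counts, which is 0.0751 to 0.143 CPM in these libraries. CCL27, a skin chemokine that shares the receptor CCR10 with CCL28, passed the threshold in no comparison with untreated cells (-0.46 at 7 days). At 7 days CCL7 was higher and CCL24 lower, where 16.7% of all genes tested were higher and 14.4% lower, and 0 of the 3 were called at 90 min or with the knockdown by edgeR or DESeq2. At an unadjusted p under 0.05, 1 of them (CCL24) was lower at 90 min and 0 differed with the knockdown. Of 5 CXC chemokines tested, 2 were called higher at 90 min, 3 higher and 1 lower at 7 days, and 2 higher and 1 lower with the knockdown, against the shares of all genes given above for the members. CXCL14, an attractant of monocytes and dendritic cells, showed the largest change, from 60.9 ± 16.5 CPM in untreated cells to 0.835 ± 0.138 at 7 days and 12.6 ± 1.48 with the knockdown (SD, n = 5 each), log2 fold changes of -6.18 and -2.27. CXCL8, the neutrophil attractant, was higher by 1.87 at 90 min, 3.65 at 7 days and 0.60 with the knockdown on the log2 scale, the last with overlapping libraries. CXCL3, which shares a receptor with CXCL8, was higher at 90 min (1.08) and at 7 days (2.08), and CXCL12, the ligand of CXCR4, at 7 days (0.91) and with the knockdown (1.23).

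The receptors through which these chemokines act were looked up for their role, not for how they moved, and most were barely read. CCR2, the receptor of CCL2, had 3 to 9 counts in the libraries at 7 days and at most 2 in all others, and was not tested. CX3CR1 had 0 to 12 counts and CCR3 had 1 to 14, also too few for the test. CCR10 had 8 to 23 counts and did not pass in any comparison with untreated cells. CCR6, the receptor of CCL20, was the exception with 34 to 139 counts. Its levels of 2.82 ± 0.705 CPM in untreated cells, 2.76 ± 0.271 at 90 min, 2.91 ± 0.378 at 7 days and 3.27 ± 0.316 with the knockdown (SD, n = 5) did not pass the test, with a log2 fold change of 0.02 at 7 days.

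**Figure D4:**
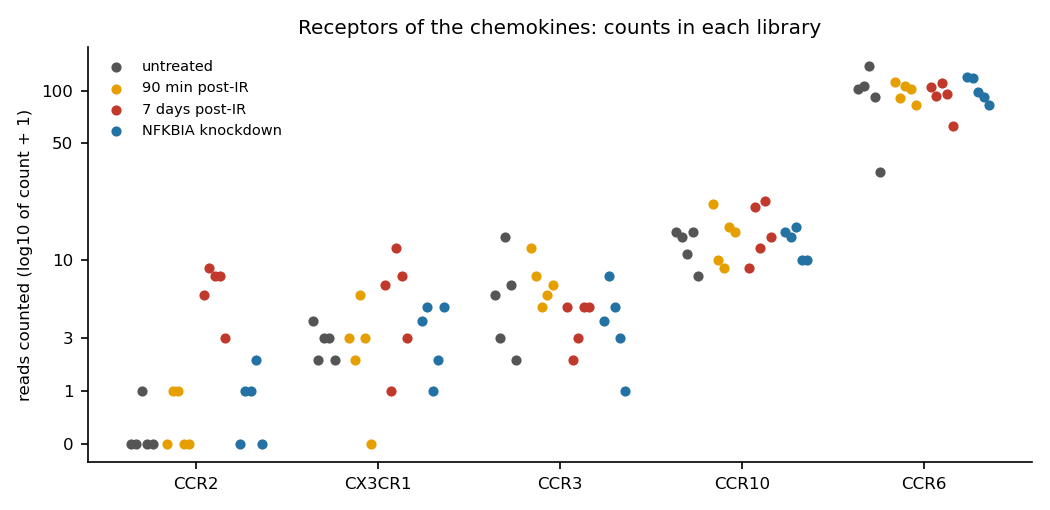
Reads counted in each library (vertical axis, log10 of count + 1, labelled with counts) for the receptors of the chemokines (horizontal axis), coloured by group. CCR6 had 34 to 139 counts, the lowest in untreated replicate 5, while CCR2, CX3CR1 and CCR3 stayed at or below 14 and CCR10 at or below 23.

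Of 20 CC and CX3C receptor symbols, older names included, 16 had a row and 7 were tested. At 7 days 2 of these were higher and 2 lower, where 16.7% of all genes tested were higher and 14.4% lower. With the knockdown 1 was higher and 2 were lower, where the shares of all genes were 5.18% and 7.53%, and at 90 min 0 were called by edgeR or DESeq2, with 1 (ACKR1) at an unadjusted p under 0.05. CCRL2, which presents chemerin and is itself silent, rose from 0.423 ± 0.0605 CPM in untreated cells to 2.45 ± 0.283 at 7 days (SD, n = 5, log2 fold change 2.54, adjusted p = 2.58e-10, edgeR, Benjamini-Hochberg adjusted), and by 0.74 on the log2 scale with the knockdown. CCR1, a signalling receptor of several CC chemokines, was the other one higher at 7 days (0.70). ACKR3, a scavenger of CXCL12, fell at 7 days (-1.62) and with the knockdown (-1.03). ACKR1, which binds CCL2 among many others, fell at 7 days (-0.81), and ACKR2, a scavenger of inflammatory CC chemokines, was lower with the knockdown (-1.24) from levels of 0.491 ± 0.341 and 0.191 ± 0.0780 CPM that overlapped.

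Chemokines are also altered by proteases after secretion. Of the 5 proteases listed and tested, 2 were called higher at 7 days (16.7% of all genes tested) and 1 with the knockdown (5.18%). DPP4, which trims the amino terminus of several chemokines, rose at 7 days (3.17 ± 0.799 to 10.8 ± 0.939 CPM, SD, n = 5, log2 fold change 1.78) and with the knockdown (log2 fold change 0.89). CTSS, a cysteine protease that cleaves the CX3CL1 protein, rose at 7 days (1.26). ADAM10 and ADAM17, the sheddases that release CX3CL1 from the membrane, stayed under the fold threshold, with ADAM10 at 0.08 and ADAM17 at 0.16 on the log2 scale at 7 days. At 90 min 0 proteases were called by edgeR or DESeq2, and 1, ADAM17, had an unadjusted p under 0.05. It had a log2 fold change of 0.27 (adjusted p = 8.61e-05, edgeR, Benjamini-Hochberg adjusted). The transcripts say nothing of the shed or trimmed proteins, which were not measured.

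The NF-κB subunits and inhibitors were read beside the members. Of 11 listed and tested, 4 were called higher at 90 min (2.08% of all genes tested), 5 higher at 7 days (16.7% of all genes) and 3 lower with the knockdown (7.53% of all genes), where NFKBIA itself is among the 3. NFKBIA, which encodes IκBα, had 82.1 ± 5.27 CPM at 90 min and 30.8 ± 1.59 at 7 days (SD, n = 5), log2 fold changes of 1.40, called higher, and -0.018, which did not pass. TNFAIP3, which encodes the A20 inhibitor of NF-κB signalling, had log2 fold changes of 1.41 at 90 min, 0.55 at 7 days (overlapping libraries) and -0.52 with the knockdown. NFKBIZ, a nuclear IκB protein, had 0.53, 1.19 and -0.34, the last under the fold threshold. NFKBIE, which encodes IκBε, had 0.84, 0.56 and -0.30, the last again under it. The calls of RELB and TNFAIP3 with the knockdown were lost with upper-quartile factors or library size alone.

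Lane and single libraries touched the members unequally. Untreated replicate 5 had the highest untreated level of CX3CL1 (40.3 CPM, against 23.7 to 30.0 in the other 4), CCL2 (49.5 against 31.8 to 42.7) and CCL28 (4.14 against 2.47 to 3.43), but not of CCL20 (1.76 against 1.11 to 2.24) or CCL26 (5.04 against 2.55 to 5.63). With lane as a factor the CCL28 differences became -0.38 at 90 min, -0.58 at 7 days and -1.01 with the knockdown, none past the test. The CCL2 difference at 7 days turned from 0.24 to -0.23. Over all genes kept, untreated replicate 5 also stood apart from its group. Its counts differed from those of the other untreated libraries with a chi-square per degree of freedom of 98.24 to 158.2. The remaining untreated pairs had 11.55 to 73.83, and pairs within the other groups at most 21.61. Whether lane, depth or culture set replicate 5 apart was not tested.

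**Figure D5:**
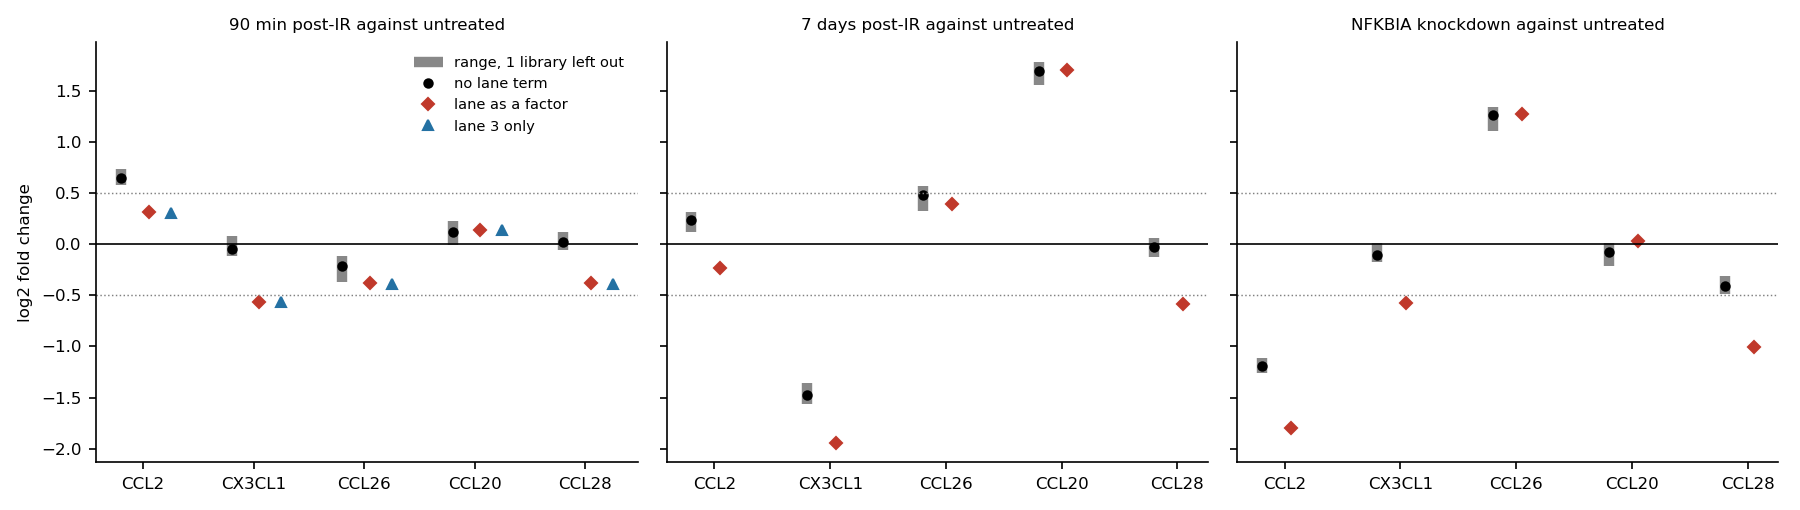
Log2 fold change against untreated cells (vertical axis) of each chemokine (horizontal axis) with no lane term (black), with lane as a factor (red diamonds) and, at 90 min, within lane 3 (blue triangles). Grey bars span the fits with 1 library left out. With lane as a factor CCL2, CX3CL1 and CCL28 moved down in each comparison, while CCL20 and CCL26 moved by less than any of these.

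Across the 20 libraries the log2 CPM of CCL20 and CX3CL1 had a Pearson correlation of -0.91, and that of CCL2 and CCL26 one of -0.77. CCL2 and CCL28 had 0.59, CCL26 and CCL28 -0.62, and CCL2 and CCL20 0.35. The remaining pairs lay between -0.19 and 0.12. The libraries share group, lane and depth, so that these values include the differences between the groups. Correlations of these pairs within groups were not computed.

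The genes whose log2 CPM ran most like each member over the 20 libraries were named by the same measure. For CX3CL1 they were SKP2 (0.986), ACBD7 (0.983) and NREP (0.982), and for CCL2 they were MFSD2A (0.969), ELL2 (0.963) and SPAG1 (0.954). For CCL20 they were PRR9 (0.964), CHI3L2 (0.964) and ARL14 (0.960), and for CCL26 B3GNT3 (0.940), SNCG (0.935) and TUBB3 (0.932). CCL28 had no close match, with ZNF107 (0.797), KCNH1 (0.772) and GOLGA8H (0.769) the nearest. After removal of the group means the correlations with these 3 genes were 0.758 to 0.777 for CX3CL1, 0.345 (ELL2) to 0.704 (MFSD2A) for CCL2 and 0.439 (ARL14) to 0.704 (PRR9) for CCL20. They were 0.580 to 0.721 for CCL26 and 0.622 to 0.727 for CCL28. The 3 genes of each member were picked as closest over these same 20 libraries, so that high values are partly fixed by that choice.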

How the data were processed

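Whole-number read counts per gene, deposited by the authors without normalization, were used for 20 libraries of U2-OS cells. According to the submitters' processing notes, bcl2fastq, Trimmomatic and STAR 2.4.2a were used with hg19, and the methods name stranded mRNA libraries sequenced as single reads. The counting tool and its strand setting are not given in the sources used here. No member overlaps another gene in GENCODE 29.

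R 4.3.3 and edgeR 4.0.16 served for the tests. The filterByExpr function (minimum count 10) kept 14992 genes, TMM factors scaled the libraries, and a single quasi-likelihood fit of all libraries had 1 coefficient per group. Benjamini-Hochberg adjustment ran over all genes kept. A call required an adjusted p below 0.05 together with a log2 fold change beyond 0.5 either way. Standard errors follow from the F statistic. For the members, an exact permutation test, two-sided, of log2 CPM (prior count 2, 252 splits) was added. Levels per kilobase used the gene width in the deposited table. The study calls the libraries of a group biological replicates, and the edgeR p values set group differences against the spread between libraries within groups. The labels name no clone for the knockdown libraries, so that differences between clones may not be covered.

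The members and gene lists were chosen with earlier results of these data known. Named genes were the members, the 3 genes most correlated with each, and from each list the called genes with the largest change (at most 4). Beyond this rule, CCR1 was named to complete a count, RELB for a call that other scalings end, and the receptors of the members, STAT6, CCL27, ADAM10, ADAM17, CCL17 and CCL22 and the marker genes were named for their role, and STAT6 and CCL27 were picked after their values were seen. Alternatives were RLE and upper-quartile factors, library size alone, DESeq2 1.42.0, 2 other filters, fits without the other groups, lane or replicate number as a factor, single lanes, other thresholds and each library left out. The gene lists were compared only under other scalings and with DESeq2, so that lane and left-out libraries were not tried on them. Both tests were tried on 10 simulated data sets with known changes. On average edgeR kept its false calls below the nominal rate, whereas DESeq2 exceeded it, so that a call held by DESeq2 alone carries less weight. A first version of this check used a single data set and did not show that excess. RefSeq promoters (GRCh38.p14) and GENCODE 29 were used only for sequences, names and gene order, and no coordinates were carried between builds. Figures were drawn with matplotlib 3.10.9.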

Additional observations from a re-analysis of the deposited data

Results flagged for a closer look

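Between the 2 time points, 3 of the 5 members were called, with an adjusted p under 0.05 and a log2 difference over 0.5, by the test of 7 days against 90 min itself (edgeR's quasi-likelihood F test, Benjamini-Hochberg adjusted). CCL20 differed by 1.57 on the log2 scale (adjusted p = 2.73e-09), CCL26 by 0.70 (adjusted p = 0.000667) and CX3CL1 by -1.42 (adjusted p = 5.66e-10), each in 5 of 5 libraries without overlap. CCL2 also passed the test but lay under the fold threshold (-0.41, adjusted p = 0.00251). Of all genes tested, 29.3% were called in this comparison and 61.8% did not overlap. In 20 groups of 5 libraries, no member had a library far enough from the others to be marked as an outlier by Dixon's 95% criterion. That criterion looks at 1 member at a time, whereas over all genes kept untreated replicate 5 stood apart from its group, as given above.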

How the results depend on the processing

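Over the fold changes of single members, 350 values under other settings kept their direction and their side of the threshold, 9 lost the call, 11 gained it and 5 reversed. With 1 library left out, 283 kept both, 0 lost the call, 4 gained it and 13 reversed. The number of members called at 90 min fell from 1 to 0 with Bonferroni correction and with a log2 threshold of 1. With lane as a factor it stayed at 1, but for CX3CL1 (-0.56) in place of CCL2 (0.31). Bonferroni correction also ended the CCL26 calls of 7 days against 90 min and against the knockdown. Over all alternatives the count ranged from 2 to 4 at 7 days against 90 min and from 3 to 5 against the knockdown.

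All values that reversed belonged to differences that did not pass in the fit reported. With lane as a factor they were CCL28 at 90 min (-0.38, and -0.39 within lane 3), CCL2 at 7 days (-0.23) and CCL20 with the knockdown (0.027), and with library size alone CCL28 at 7 days (0.017). With 1 library left out, the log2 fold change at 90 min ranged from -0.057 to 0.12 for CCL28, from -0.014 to 0.22 for CCL20 and from -0.12 to 0.079 for CX3CL1. At 7 days it ranged from -0.13 to 0.056 for CCL28 and, against 90 min, from -0.15 to 0.026. With the knockdown it ranged from -0.21 to 0.011 for CCL20 and from -0.18 to 0.011 for CX3CL1. The cause was not tested.

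Replicate numbers did not pair the libraries: deviations of same-numbered libraries correlated between -0.25 and 0.12, with 2 of 30 pairs above 0.1. With the replicate number as a block, 1 member was called at 90 min, 2 at 7 days, 2 with the knockdown, 3 at 7 days against 90 min, 4 at 7 days against the knockdown and 2 for the knockdown against 90 min, the same as without it. Depth limits CCL20 and CCL28 most, at 34 and 52 counts in their lowest libraries. Untreated and knockdown libraries shared no lane, and the only untreated library beside irradiated ones was replicate 5.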
